A study of Mus musculus with 9 samples.

Results

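The amino acid transporter genes described here are those whose symbols place them in solute carrier families Slc1, Slc3, Slc6, Slc7, Slc36, Slc38 or Slc43. Membership was read from the symbol, with no threshold on a measured value, and 59 of the 24062 genes in the table qualified. The filter on low counts left 38 of them for testing, 15 others had too few reads, and 6 had no read in any library. Of the 38, 20 passed the test in at least 1 of 3 comparisons.

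Amino acids cross membranes through carriers of several families, most of which exchange one amino acid for another or use the sodium or proton gradient. Slc7 light chains such as LAT1 (Slc7a5) and xCT (Slc7a11) reach the surface bound to the heavy chain CD98 (Slc3a2), and import large neutral amino acids such as leucine, or cystine. Sodium-coupled carriers of the Slc38 family and the exchanger ASCT2 (Slc1a5) bring in glutamine, alanine and serine. Leucine, arginine and glutamine in turn activate the growth kinase mTORC1 at the lysosome, where some Slc36 and Slc38 members sit. The transcription factor ATF4, which is made when amino acids run short, switches on several of these carriers together with enzymes of amino acid synthesis.

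The cells were embryonic fibroblasts of C57BL/6 mice, and RNA was taken 10 days after lentiviral delivery of p21, of p16 or of an empty vector (control), with 3 libraries a group. All cells had thus been through lentiviral transduction, and the control libraries carry the label senescent as well. Both proteins inhibit cyclin-dependent kinases, and the study asked what p21-expressing arrested cells make and release. The promoter of the constructs and the number of embryos or cultures behind the replicates are not given in the labels, so that the spread behind each p-value is that of these libraries and may in part be technical. The p16 samples were recorded apart from the control and p21 samples, and a separate preparation, if there was one, cannot be told apart from p16.

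Libraries held 56.9 to 76.1 M counts. The gene each group was given stood above its level in every control library: Cdkn1a (p21) was 3.09-fold higher in p21 cells and Cdkn2a (p16) 16.1-fold higher in p16 cells. These are counts per gene, in which different transcripts of Cdkn2a are not told apart. Replicate 3 of each group stood apart in Xist, which coats the silenced X chromosome (158 to 397 CPM, counts per 1 M library counts, against at most 1.34 CPM in the other libraries). The Y-linked gene Ddx3y stood at 50.1 to 68.5 CPM in replicates 1 and 2, at 1.1 and 1.26 CPM in replicate 3 of control and p16, and at 10.8 CPM in replicate 3 of p21. For that reason counts of calls are also given for replicates 1 and 2 alone. All 12 fibroblast markers were detected, although the matrix proteoglycan genes Dcn (2.19 ± 0.845 CPM in control cells) and Lum (0.872 ± 0.626 CPM) stood low. Macrophage markers moved with p21: of 17 listed, 16 were tested and 11 rose, where 19.3% of all genes rose. In p16 cells 0 of the 16 rose (3.57% of all genes). The summed level of these markers was 28.9 to 51.8 CPM in p21, 14.6 to 17.7 CPM in control and 11.6 to 16.9 CPM in p16 libraries. Of the defining markers none was at 0: the leukocyte gene Ptprc averaged 0.746 ± 0.156 CPM in p21 and 0.247 ± 0.0695 CPM in control cells, and Csf1r 3.35 ± 1.06 and 1.95 ± 0.176 CPM. Their part in any result on transporters was not tested.

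The first comparison asked which carriers differed between p21 cells and control cells. Of the 38 tested genes 14 fell and 6 rose in p21 cells. Among those that fell were the main importer of leucine and its heavy chain (Slc7a5, Slc3a2), the glutamine exchanger Slc1a5, the cystine importer Slc7a11, the arginine importer Slc7a1, 3 Slc38 genes and 2 Slc43 genes. Those that rose were the creatine carrier gene Slc6a8, Slc43a2, Slc38a10, the lysosomal members Slc36a1 and Slc38a9, and, near the limit of detection, Slc1a2. By edgeR's quasi-likelihood test with Benjamini-Hochberg adjustment over all 14572 genes tested, the source of every adjusted p given here, 36.8% of the transporter genes fell against 20.7% of all genes, and 15.8% rose against 19.3% of all genes. Either change was called for 39.9% of all genes. The share that rose was thus near the background. The p21 libraries lay wholly below the control libraries for 12 of the 38 and wholly above for 7 (25.7% and 24% of all genes). The median log2 fold change over the 38 was -0.19, beside -0.01 over all genes tested. With replicates 1 and 2 alone, 16 fell and 7 rose. Of the 20 calls, 14 passed under every alternative in normalisation, filter, test and libraries, 10 of them lower and 4 higher. The other 6 (Slc7a11, Slc1a2, Slc1a3, Slc1a6, Slc6a9 and Slc38a9) were lost in some and are marked as such below. In bulk RNA, fewer cells that express a gene and less of its RNA per cell cannot be told apart.

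**Figure D1:**
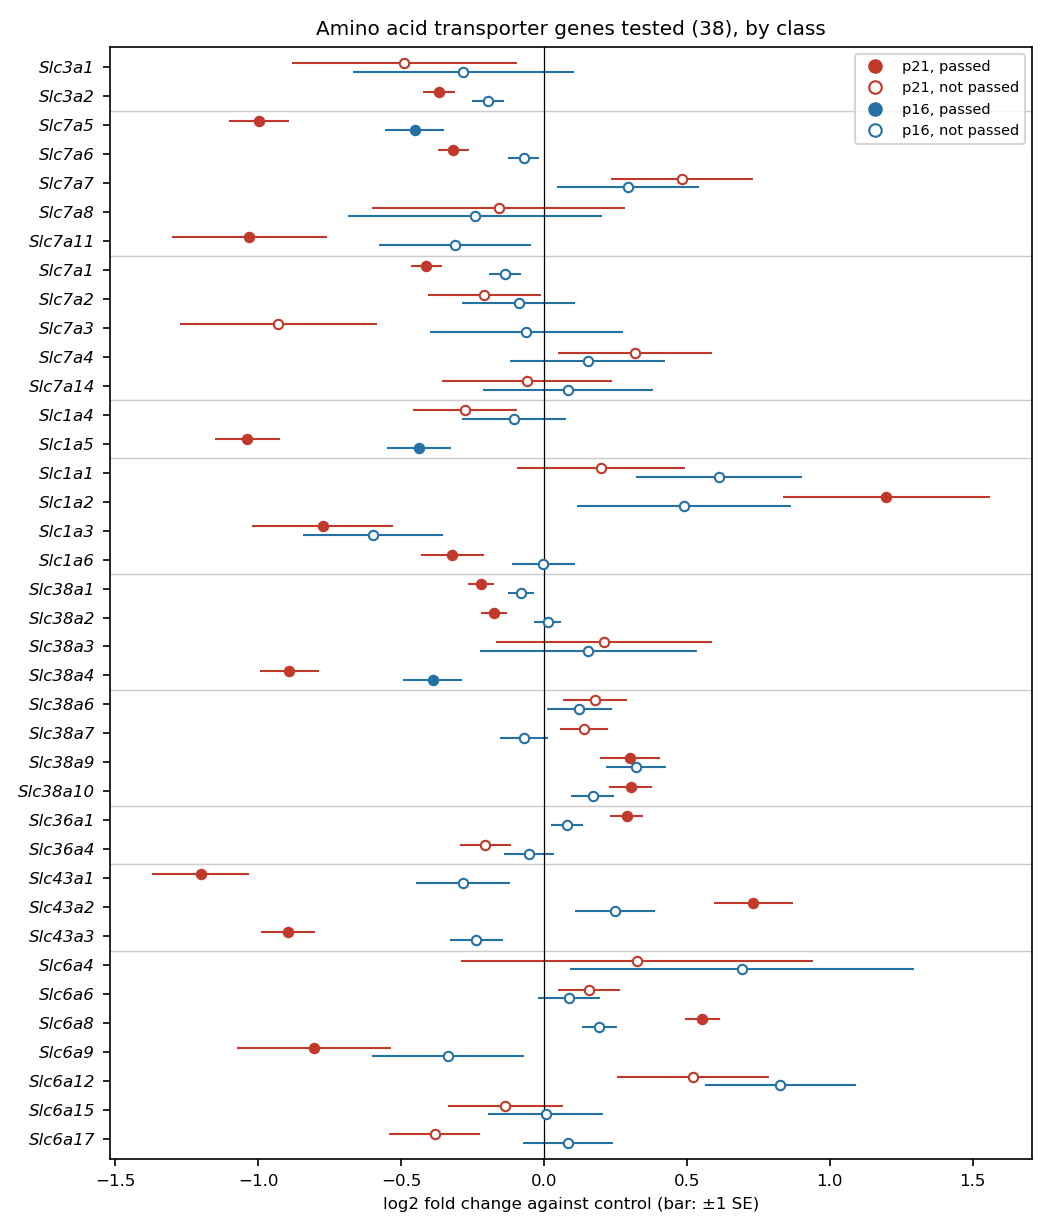
Log2 fold change of the 38 tested transporter genes against control, in p21 cells (red) and p16 cells (blue), with bars of 1 SE and filled points for adjusted p under 0.05; grey lines part the classes. In p21 cells 14 filled points lie to the left of 0 and 6 to the right, and in p16 cells 3 lie to the left.

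Levels of different genes were compared per kilobase of annotated exon. In control cells Slc7a5 led with 57.7 ± 7.72 CPM per kilobase (SD, n = 3), followed by Slc3a2 (45.6 ± 3.12), Slc38a10 (42.2 ± 2.8), the taurine carrier gene Slc6a6 (38.9 ± 5.19), Slc38a2 (36.1 ± 1.63) and Slc38a4 (30.8 ± 1.38). The steps from Slc3a2 to Slc38a10, from Slc38a10 to Slc6a6 and from Slc6a6 to Slc38a2 lay within their spread. In p21 cells Slc38a10 (52.1 ± 4.14 CPM per kilobase) and Slc6a6 (43.5 ± 5.25) were highest and lay within their spread of each other. Slc7a5 stood there at 28.9 ± 2.21 CPM per kilobase, below both and within the spread of Slc6a8 (25.6 ± 1.82). The means of Slc3a2 (35.3 ± 0.557) and Slc38a2 (31.9 ± 0.358) also lay above that of Slc7a5. In p16 cells Slc38a10 (47.5 ± 3.29 CPM per kilobase) and Slc7a5 (42.2 ± 3.99) lay within their spread of each other. The means of Slc6a6 (41.4 ± 2.91) and Slc3a2 (39.7 ± 1.5) came next. Annotated exons include ends that a given cell may not use, so these levels are approximate.

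Slc3a2 (chr19:8706882-8723369) encodes the CD98 heavy chain, which carries the Slc7 light chains to the surface. It stood at 149.6, 161 and 172 CPM in control replicates 1, 2 and 3, at 126, 122 and 126 CPM in p21 and at 141, 134 and 145 CPM in p16 libraries. All p21 and all p16 libraries lay below all control libraries, and all p21 libraries below all p16 libraries. The differences of p16 from control (adjusted p = 0.0643) and of p21 from p16 (adjusted p = 0.0765) did not pass. The gene fell 1.29-fold in p21 cells (log2 fold change -0.37 ± 0.056 SE, adjusted p = 0.000821). Slc3a1, the heavy chain of kidney and gut, averaged 0.19 ± 0.0199 CPM in control cells. Of its exon bases 26.5% overlap Prepl on the opposite strand.

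Slc7a5 (chr8:121881150-121907694), the LAT1 light chain that imports leucine and other large neutral amino acids, stood at 183, 219 and 240.1 CPM in the control libraries, 99.1, 107 and 115 in the p21 libraries and 150.4, 145 and 173 in the p16 libraries. The 3 groups did not overlap, with p16 between the others. In p21 cells the gene fell 2-fold (log2 fold change -1.0 ± 0.10 SE, adjusted p = 0.000102). Slc7a6, a light chain that exchanges arginine for neutral amino acids, stood at 72.1, 70.1 and 68.1 CPM in the control libraries, 52.5, 58 and 58.2 in the p21 libraries and 67.8, 68.4 and 64.1 in the p16 libraries. It fell 1.25-fold in p21 cells (adjusted p = 0.00157), with no overlap, while p16 and control libraries overlapped.

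Slc7a11 (chr3:49892526-50443614), the xCT light chain that brings in cystine for glutathione synthesis, stood at 5.62, 9.49 and 13.3 CPM in the control libraries, 4.28, 4.1 and 5.51 in the p21 libraries and 6.75, 7.04 and 9.04 in the p16 libraries. The control libraries differed among themselves more than the p21 libraries did, and control replicate 1 lay just above the highest p21 library. The gene fell 2.04-fold in p21 cells (log2 fold change -1.03 ± 0.27 SE, adjusted p = 0.0139). The call was lost when p21 replicate 1 (adjusted p = 0.0562) or 2 (0.053) was left out. Its promoter is shown for a C/EBP-ATF element, the site that ATF4 and its partners bind. Of the 15 called genes with a promoter in the RefSeq table, only Slc7a11 held this element in the 250 bases before the start site. The stretch runs from 120 to 11 bases before the start site (GRCm38.p6, RefSeq, chr3:50443624-50443733, minus strand, written 5′ to 3′ along the gene), with each match in capitals.
Slc7a11: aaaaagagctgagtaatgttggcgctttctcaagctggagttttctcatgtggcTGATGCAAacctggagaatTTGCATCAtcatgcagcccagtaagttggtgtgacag
The letters TGATGNAA were searched on both strands, and the matches begin 66 and 47 bases before the start site, with opposite orientation. Windows of 250 bases before the start were found in that table for 41 of the 59 genes. Of those genes, only Slc7a11 and the uncalled Slc7a7 held the element. It occurred in 3 of their 62 windows (4.84%), near the 3.45% of all 32851 promoter windows. Slc7a5, Slc1a5, Slc38a1, Slc43a3 and Slc6a8 were not among those with a window. Sequence after the start site was not searched for any gene, so an element there would be missed.

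The other 2 light chains tested did not pass. Slc7a7, a close relative of Slc7a6 that also exchanges arginine and is abundant in macrophages, averaged 3.39 ± 0.918 CPM in control cells, 4.75 ± 0.576 in p21 cells and 4.15 ± 1.36 in p16 cells (adjusted p = 0.149 for p21). The rise of Slc7a7 in p21 cells passed with replicates 1 and 2 alone (log2 fold change 0.60, adjusted p = 0.0228). This rise also passed with replicate number in the fit (the replicate block, adjusted p = 0.00719) or a term for replicate 3 alone (adjusted p = 0.00931). Of the exon bases of Slc7a7, 7% overlap Oxa1l on the opposite strand. Slc7a8, the LAT2 light chain, averaged 5.73 ± 2.68, 5.12 ± 1.17 and 4.85 ± 2.36 CPM in the same order (adjusted p = 0.799).

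**Figure D2:**
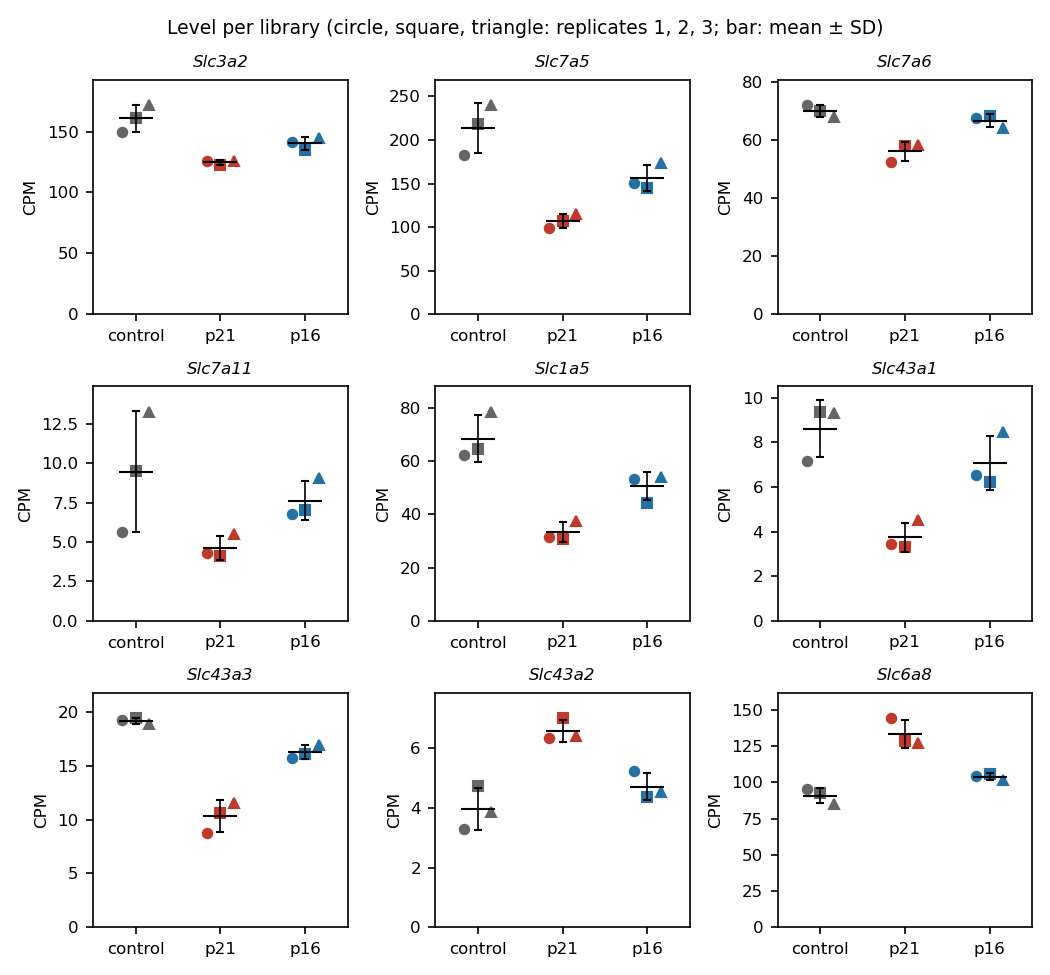
Level in CPM of 9 transporter genes in each library (circle, square and triangle for replicates 1, 2 and 3), with the mean ± SD of each group as a black bar. For Slc3a2, Slc7a5, Slc1a5, Slc43a3 and Slc6a8 the 3 groups do not overlap and p16 lies between control and p21. Slc43a2 and Slc6a8 are highest in p21 cells.

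Among the carriers of cationic amino acids, Slc7a1 (chr5:148327410-148399904), the widely expressed arginine and lysine importer CAT1, stood at 156, 163 and 173 CPM in the control libraries, 119.9, 129 and 121 in the p21 libraries and 146, 156 and 145 in the p16 libraries. All p21 libraries lay below all others. The fall in p21 cells was 1.33-fold (log2 fold change -0.41 ± 0.055 SE, adjusted p = 0.000408). Slc7a3, a related importer, stood at 5.32, 12.8 and 15 CPM in the control libraries, 5.33, 5.33 and 6.78 in the p21 libraries and 8.83, 8.51 and 14.4 in the p16 libraries. Its control replicate 1 lay as low as the p21 libraries, and the difference between p21 and control did not pass (log2 fold change -0.93 ± 0.35 SE, adjusted p = 0.0562). It passed without control replicate 1 (adjusted p = 0.00242) or p16 replicate 3 (adjusted p = 0.0461), and with no filter on low counts (adjusted p = 0.0497). With all 9 libraries, it also passed with the replicate block (adjusted p = 0.00725) and with a replicate 3 term (adjusted p = 0.00862). Slc7a2, Slc7a4 and Slc7a14 averaged 8.92 ± 1.77, 0.794 ± 0.0882 and 1.46 ± 0.56 CPM in control cells and did not pass.

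Slc1a5 (chr7:16781340-16798274), the ASCT2 exchanger that brings in glutamine, stood at 62.3, 64.6 and 78.7 CPM in the control libraries, 31.7, 30.8 and 37.6 in the p21 libraries and 53.3, 44.5 and 54 in the p16 libraries. The groups did not overlap, in the same order as for Slc7a5. In p21 cells it fell 2.05-fold (log2 fold change -1.04 ± 0.11 SE, adjusted p = 0.000128). Its relative Slc1a4, the ASCT1 exchanger of alanine, serine and cysteine, stood at 53.3, 75.2 and 86.7 CPM in the control libraries, 54.8, 51.4 and 71.5 in the p21 libraries and 60.7, 61.8 and 77.4 in the p16 libraries. Here the groups overlapped (adjusted p = 0.255), and the p21 minus control difference passed without control replicate 1 (log2 fold change -0.45, adjusted p = 0.0415). That difference also passed with the replicate block (log2 fold change -0.27, adjusted p = 0.0282) and with a replicate 3 term (adjusted p = 0.0312).

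Of the 5 glutamate carriers of the Slc1 family, 4 were tested, 2 fell and 1 rose. Slc1a6, known best from Purkinje neurons, stood at 47.7, 41 and 35.5 CPM in the control libraries, 30.3, 37.3 and 31.9 in the p21 libraries and 39.7, 44.5 and 39.8 in the p16 libraries. It fell 1.25-fold in p21 cells (adjusted p = 0.0431) although 1 p21 library overlapped the control range, and the call was lost when any of 7 libraries was left out (control replicates 1 and 2, p21 replicates 1 and 3, or any p16 replicate, adjusted p = 0.0551 to 0.158), in the fit of the 2 groups alone (0.073) and with DESeq2 size factors (0.0516). Slc1a3, the GLAST carrier of glia, stood at 9.04, 6.5 and 5.09 CPM in the control libraries, 4.86, 4.31 and 2.85 in the p21 libraries and 4.95, 5.03 and 3.65 in the p16 libraries. The fall of Slc1a3 in p21 cells was 1.71-fold (adjusted p = 0.0314) and did not pass without control replicate 1 or 2 or p21 replicate 2 or 3 (adjusted p = 0.0605 to 0.102), nor in the fit of the 2 groups alone (0.0507). Slc1a2, the GLT1 carrier of astrocytes, rose 2.29-fold, but from 0.3, 0.302 and 0.335 CPM in control to 0.702, 0.92 and 0.525 CPM in p21 libraries (adjusted p = 0.0255), and did not pass once any 1 of the control replicates, or p21 replicate 1 or 2, was left out (adjusted p = 0.0509 to 0.0946). Of 6 nerve and glia markers tested, 0 rose in p21 cells by edgeR (19.3% of all genes, 0 at an unadjusted p under 0.05, 0 by DESeq2) and Map2 fell (1.66-fold, adjusted p = 0.0187). The part of such cells in the level of Slc1a2 was not tested. Slc1a1, the EAAT3 carrier, averaged 1.32 ± 0.645 CPM in control cells and did not pass, except without control replicate 2 (adjusted p = 0.0395 for p21 and 0.0379 for p16), and 31.9% of its exon bases overlap another gene on the opposite strand.

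Slc38a1, Slc38a2 and Slc38a4 lie side by side on chromosome 15, between 96571418 and 97055956, and encode the sodium-coupled system A importers of glutamine, alanine and other small neutral amino acids. All 3 fell in p21 cells, by different amounts. Slc38a4, an imprinted gene, stood at 132, 125 and 137 CPM in the control libraries, 59.2, 75.8 and 77.4 in the p21 libraries and 91.4, 99.7 and 109 in the p16 libraries, without overlap. The decrease of Slc38a4 in p21 cells was 1.85-fold (log2 fold change -0.89 ± 0.10 SE, adjusted p = 0.000174). Slc38a1 stood at 124, 131 and 126 CPM in the control libraries, 105, 109.8 and 112 in the p21 libraries and 122, 122 and 116 in the p16 libraries, a fall of 1.17-fold in p21 cells (adjusted p = 0.00377). Slc38a2, a gene that starved cells raise, was the highest of the 3 per kilobase in every group and stood at 335, 312 and 309 CPM in the control libraries, 284, 284 and 279 in the p21 libraries and 324, 330.3 and 310.2 in the p16 libraries. It fell 1.13-fold in p21 cells (adjusted p = 0.0138), and p16 libraries overlapped the control range. Slc38a3, a system N carrier of liver and kidney, averaged 0.15 ± 0.0282 CPM in control cells and did not pass.

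The remaining Slc38 members and the Slc36 family include carriers of the lysosome. Slc38a10, little characterised and highest of them per kilobase, stood at 250.5, 279 and 284 CPM in the control libraries, 336, 307 and 361 in the p21 libraries and 298, 288 and 329 in the p16 libraries. It rose 1.23-fold in p21 cells (log2 fold change 0.30 ± 0.075 SE, adjusted p = 0.0105). Of its exon bases 5.72% overlap a transcript on the opposite strand. Slc38a9, the lysosomal arginine sensor of mTORC1, stood at 3.93, 4.27 and 4.34 CPM in the control libraries, 5.15, 5.45 and 4.83 in the p21 libraries and 5.46, 5.55 and 4.67 in the p16 libraries. All p21 and p16 libraries lay above the control libraries, and the rise in p21 cells was 1.23-fold (adjusted p = 0.0463). That call was lost with library size alone (adjusted p = 0.0695), with no filter on low counts (adjusted p = 0.0613), in the fit of the 2 groups alone (adjusted p = 0.0645) and when any of 7 libraries was left out (any control replicate, or p21 or p16 replicate 1 or 2, adjusted p = 0.057 to 0.136). Slc38a7, a lysosomal glutamine exporter, averaged 21.8 ± 1.57 CPM in control and 24 ± 1.09 CPM in p21 cells (adjusted p = 0.21), and Slc38a6 averaged 5.23 ± 0.481 and 5.92 ± 0.447 CPM (adjusted p = 0.233).

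Slc36a1 (chr11:55204350-55236330) encodes PAT1, which moves small amino acids out of the lysosome with protons. It stood at 20.6, 21.9 and 21.5 CPM in the control libraries, 26.5, 24.6 and 26.9 in the p21 libraries and 21.5, 22.6 and 23.5 in the p16 libraries. All p21 libraries lay above all others, and the rise over control was 1.22-fold (log2 fold change 0.29 ± 0.057 SE, adjusted p = 0.0033). Its relative Slc36a4 averaged 13.7 ± 0.202 CPM in control and 11.9 ± 1.59 CPM in p21 cells and did not pass (adjusted p = 0.0939). Slc36a4 fell without p21 replicate 3 (log2 fold change -0.31, adjusted p = 0.00942), with replicates 1 and 2 alone (0.0205) and with a replicate 3 term (0.0484). The Slc36a1 promoter is shown for an E-box, a site shared by MYC and by the lysosomal regulators TFEB and TFE3. Among the promoters in the table of genes that rose, it alone held an E-box in the 250 bases searched. The stretch covers 120 to 11 bases before the start site (GRCm38.p6, RefSeq, chr11:55204220-55204329, plus strand), with the match in capitals.
Slc36a1: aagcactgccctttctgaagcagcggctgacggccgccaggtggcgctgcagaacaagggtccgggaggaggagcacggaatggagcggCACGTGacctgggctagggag
The letters CACGTG, the same on both strands, begin 31 bases before the start site. They occur in 8 of the 62 windows of transporter genes (12.9%) and in 6.02% of all windows of that length. Besides Slc36a1, the called genes with a match were Slc43a1 and Slc1a6, both lower in p21 cells.

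**Figure D3:**
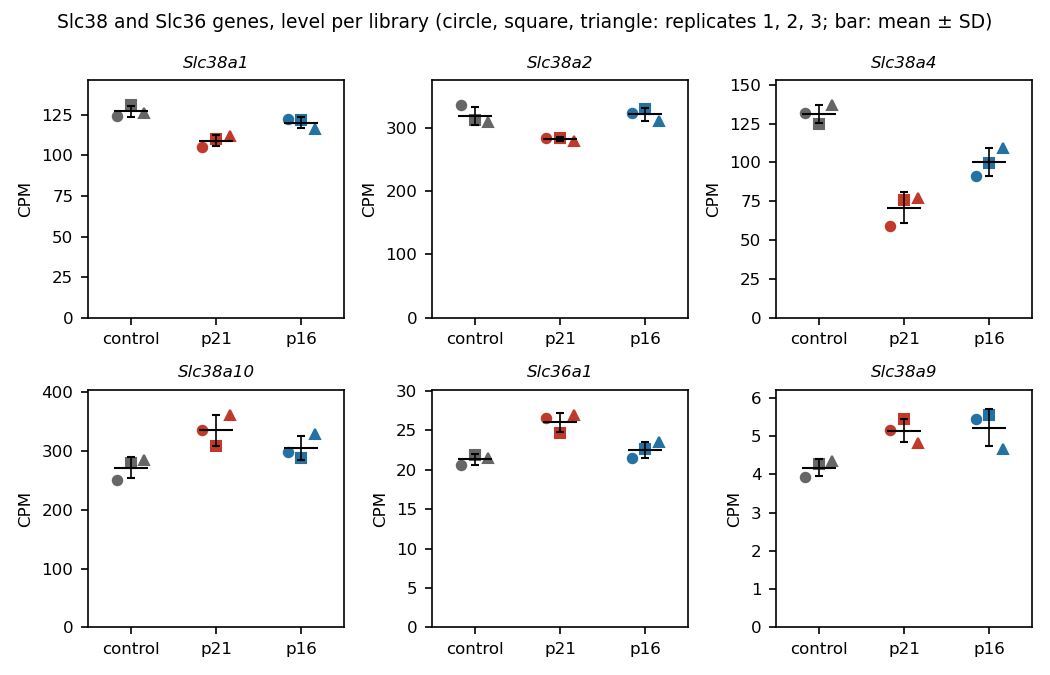
Level in CPM of 5 Slc38 genes and Slc36a1 in each library (circle, square and triangle for replicates 1, 2 and 3), with the mean ± SD of each group as a black bar. The 3 p21 libraries lie below the control libraries for Slc38a1, Slc38a2 and Slc38a4 and above them for Slc38a10, Slc36a1 and Slc38a9.

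All 3 Slc43 genes changed in p21 cells, and not in the same direction. Slc43a1, the LAT3 carrier of leucine and other branched-chain amino acids, stood at 7.15, 9.37 and 9.3 CPM in the control libraries, 3.43, 3.32 and 4.5 in the p21 libraries and 6.54, 6.21 and 8.46 in the p16 libraries. It fell 2.3-fold (log2 fold change -1.20 ± 0.17 SE, adjusted p = 0.000552), the largest fitted fold among the 14 genes that fell. Slc43a2, the LAT4 carrier of much the same amino acids, stood at 3.3, 4.73 and 3.88 CPM in the control libraries, 6.33, 7.01 and 6.43 in the p21 libraries and 5.23, 4.37 and 4.55 in the p16 libraries. This gene rose 1.66-fold (log2 fold change 0.73 ± 0.14 SE, adjusted p = 0.00261), and 9.18% of its exon bases overlap an antisense gene. Slc43a3, which carries purine nucleobases rather than amino acids, stood at 19.2, 19.4 and 18.9 CPM in the control libraries, 8.72, 10.6 and 11.6 in the p21 libraries and 15.7, 16 and 16.9 in the p16 libraries. It fell 1.86-fold (log2 fold change -0.89 ± 0.095 SE, adjusted p = 0.000106). Slc43a1 (chr2:84838850-84863594) and Slc43a3 (chr2:84936579-84958509) lie close together on chromosome 2, while Slc43a2 lies on chromosome 11.

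Of the 17 Slc6 genes, many of which serve neurotransmitters, 7 were tested, 1 rose and 1 fell in p21 cells. Slc6a8 (chrX:73673150-73682502), the creatine carrier, stood at 95.1, 92.4 and 85.1 CPM in the control libraries, 144, 128 and 127 in the p21 libraries and 105, 106 and 101 in the p16 libraries. The groups did not overlap. It rose 1.47-fold in p21 cells (log2 fold change 0.55 ± 0.062 SE, adjusted p = 0.000151). Slc6a6, the taurine carrier, did not pass, at 329 ± 43.9 CPM in control cells, 368 ± 44.4 in p21 cells and 349.9 ± 24.6 in p16 cells (adjusted p = 0.276). Slc6a9, the glycine carrier GlyT1, stood at 14.8, 27.1 and 34.3 CPM in the control libraries, 14.2, 12.4 and 17.1 in the p21 libraries and 18.1, 17.5 and 24.7 in the p16 libraries. Control replicate 1 lay within the p21 range. The fall of 1.75-fold in p21 cells (adjusted p = 0.0379) was lost with replicates 1 and 2 alone (adjusted p = 0.0537), in the fit of the 2 groups alone (adjusted p = 0.0594), or without control replicate 2 or 3, p21 replicate 1 or 2, or p16 replicate 1 or 2 (adjusted p = 0.0524 to 0.132). Of its exon bases, 27.8% overlap Ccdc24 on the opposite strand, and the libraries do not mark strand. Slc6a17, a synaptic vesicle carrier of neutral amino acids, averaged 23.6 ± 2.57 CPM in control and 18.1 ± 4.03 CPM in p21 cells (adjusted p = 0.081). It fell without p21 replicate 3 (log2 fold change -0.56, adjusted p = 0.015) and with replicates 1 and 2 alone (adjusted p = 0.00938). With all 9 libraries, it also fell with the replicate block (adjusted p = 0.0017) and with a replicate 3 term (adjusted p = 0.00217). Slc6a4, Slc6a12 and Slc6a15, which carry serotonin, betaine and neutral amino acids, averaged at most 2.56 ± 0.732 CPM in control cells and did not pass. With a replicate 3 term the rise of Slc6a12 in p21 cells passed (log2 fold change 0.52, adjusted p = 0.0482).

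In p16 cells the same families were compared with control. Of the 38 genes 3 fell (7.89%, against 3.65% of all genes) and 0 rose (3.57% of all genes, with 7.22% called in either direction). The 3 were Slc7a5, Slc1a5 and Slc38a4, which also fell in p21 cells against the same control libraries. At an unadjusted p under 0.05, 7 were lower and 4 higher, and DESeq2 called 4 lower and 2 higher. The p16 libraries lay wholly below the control libraries for 8 of the 38 and wholly above for 4 (15.1% and 13.6% of all genes). The fall of Slc7a5 was 1.37-fold (log2 fold change -0.45 ± 0.10 SE, adjusted p = 0.0317), that of Slc1a5 1.35-fold (adjusted p = 0.0461) and that of Slc38a4 1.31-fold (adjusted p = 0.0498). All p16 libraries lay below all control libraries for each of the 3. These calls stood close to the threshold. In the fit of the 2 groups alone, those of Slc7a5 (adjusted p = 0.0715) and Slc1a5 (0.0776) were lost. That of Slc7a5 was lost without control or p21 replicate 2, control replicate 3, p21 replicate 1 or p16 replicate 1 or 2 (adjusted p = 0.0508 to 0.135). The Slc1a5 call was lost without any 1 of 7 libraries (all but control replicate 1 and p21 replicate 3, adjusted p = 0.0614 to 0.166), and that of Slc38a4 without any 1 of 8 (all but p21 replicate 1, adjusted p = 0.0545 to 0.168), with replicates 1 and 2 alone (0.0645), with DESeq2 size factors (0.053) and with the stricter filter (0.0509). Slc3a2 passed without control replicate 1 (adjusted p = 0.0307). With the replicate block 5 genes fell and 2 rose in p16 cells. Slc3a2 (log2 fold change -0.20, adjusted p = 0.0189) and Slc1a3 (-0.58, adjusted p = 0.00791) then joined the genes that fell, and those that rose were Slc6a8 (0.20, adjusted p = 0.0172) and the betaine carrier gene Slc6a12 (0.86, adjusted p = 0.0161).

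Several genes called in p21 cells did not pass in p16 cells. Slc43a1 was 1.22-fold lower (adjusted p = 0.332), Slc43a3 1.18-fold lower (adjusted p = 0.152) and Slc7a11 1.24-fold lower (adjusted p = 0.526, with adjusted p = 0.114 for p21 against p16). Slc7a1 was 1.1-fold lower (adjusted p = 0.163) and Slc38a2 had a log2 fold change of 0.01 ± 0.046 SE (adjusted p = 0.909). Slc38a9 was 1.25-fold higher in p16 cells, about as much as in p21 cells, and did not pass (adjusted p = 0.0969).

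Whether p21 and p16 differed in these changes was tested directly. Against p16 cells, 8 of the 38 genes were lower in p21 cells (21.1%, beside 6.64% of all genes) and 3 were higher (7.89%, beside 6.19%), where 12.8% of all genes were called in either direction. Scaled by library size alone, 8 were lower and 1 higher. Lower were Slc43a1 (1.89-fold, adjusted p = 0.00962), Slc43a3 (1.58-fold, adjusted p = 0.0031), Slc1a5 (1.52-fold, adjusted p = 0.0101), Slc7a5 (1.46-fold, adjusted p = 0.0108) and Slc38a4 (1.42-fold, adjusted p = 0.0142). Smaller differences passed for Slc7a1 (1.21-fold, adjusted p = 0.0134), Slc7a6 (1.19-fold, adjusted p = 0.019) and Slc38a2 (1.14-fold, adjusted p = 0.0287). Higher were Slc6a8 (1.28-fold, adjusted p = 0.00696), Slc43a2 (1.4-fold, adjusted p = 0.048) and Slc36a1 (1.16-fold, adjusted p = 0.042). No p21 library overlapped a p16 library for any of these 11 genes. Over all 38, p21 libraries lay wholly below p16 libraries for 15 and wholly above for 3 (18.5% and 17.5% of all genes).

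Of the 11 differences, those of Slc43a3 and Slc6a8 passed under every alternative. Without p21 replicate 1, the calls of Slc7a5 (adjusted p = 0.0605), Slc1a5 (0.055) and Slc43a1 (0.0539) were lost, and of the genes that were lower only Slc38a4 and Slc43a3, 2 in number, still passed. Without p16 replicate 3 the call of Slc38a4 was lost (adjusted p = 0.0507). Slc7a1 did not pass without p21 replicate 1 (adjusted p = 0.0761) or p16 replicate 2 (0.0602), nor Slc7a6 without p21 replicate 1 or p16 replicate 1 or 2 (0.067 to 0.0735). The Slc38a2 call was lost without any 1 p21 replicate or p16 replicate 1 or 2 (0.0595 to 0.0976). Slc43a2 and Slc36a1 lost theirs without any 1 p21 or p16 replicate, or without control replicate 3 for Slc43a2 and control replicate 2 for Slc36a1 (0.0549 to 0.146 and 0.0547 to 0.152). Without p16 replicate 2, 5 genes were lower. Without control replicate 1, 12 were lower, with Slc3a2 (adjusted p = 0.0389), Slc7a11 (0.0262), Slc7a3 (0.0231) and Slc1a6 (0.0415) added. Slc3a2 also passed without control replicate 3 (0.0381), and Slc36a4 (0.0455) and Slc6a17 (0.0232) without p21 replicate 3. With the replicate block 14 genes were lower and 4 higher: Slc3a2, Slc7a11, Slc7a3, Slc1a6, Slc38a1 and Slc6a17 joined the former (adjusted p = 0.00194 to 0.0373) and Slc38a7 the latter (adjusted p = 0.0236).

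Genes that work with these carriers were read in 4 lists. Of 21 genes of the ATF4 amino acid response, 9 fell and 2 rose in p21 cells (20.7% and 19.3% of all genes), with a median log2 fold change of -0.39. Atf4 itself stood at 237, 264 and 267 CPM in the control libraries, 189.9, 191 and 205 in the p21 libraries and 219, 209.8 and 232 in the p16 libraries and fell 1.31-fold in p21 cells (adjusted p = 0.000944). The serine synthesis gene Psat1 fell 1.8-fold (adjusted p = 4.99e-05) and Shmt2, which encodes a mitochondrial serine hydroxymethyltransferase, 1.69-fold (adjusted p = 0.000552). The 2 that rose were Nupr1, a stress-induced chromatin protein gene (1.66-fold, adjusted p = 7.62e-05), and Ddit3, the stress transcription factor gene CHOP (1.31-fold, adjusted p = 0.0403). The number that fell was 14 without control replicate 1, 4 without control replicate 2 or p21 replicate 1, and 5 without control replicate 3 or p21 replicate 2. The number that rose was 1 without control replicate 1 or 2, p21 replicate 1 or 3, or p16 replicate 1 or 2. In p16 cells 0 of 21 passed by edgeR (4 lower and 1 higher at an unadjusted p under 0.05, 3 lower by DESeq2), and 5 fell with the replicate block and 6 without control replicate 1.

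A list of 33 genes holds amino acid sensors, the Rag GTPases and their regulators, parts of mTORC1 itself, and its targets Tfeb and Tfe3. Of the 33, 11 rose and 2 fell in p21 cells (19.3% and 20.7% of all genes), with a median log2 fold change of 0.02. Gatsl3, the arginine sensor also named Castor1, rose 1.64-fold (adjusted p = 1.95e-05), from 18.9 ± 0.943 to 30.9 ± 0.869 CPM. Rragc, which encodes a Rag GTPase of the lysosome, rose 1.34-fold (adjusted p = 0.000588), and Flcn, the folliculin gene that acts on the Rag GTPases, 1.3-fold (adjusted p = 0.000608). Depdc5, which encodes an inhibitor of that arm, fell 1.45-fold (adjusted p = 0.000579), as did Mlst8, of the mTOR complex itself (1.17-fold, adjusted p = 0.00709). The 11 became 7 without p21 replicate 1, and the number that fell became 5 without control replicate 1. In p16 cells 1 rose, Gatsl3 (1.2-fold, adjusted p = 0.0217), and 0 fell by edgeR (3.57% and 3.65% of all genes). At an unadjusted p under 0.05, 7 were higher and 3 lower, and DESeq2 called 3 higher and 0 lower, with 3 higher and 1 lower under the replicate block. The 1 became 2 without control replicate 1 or p21 replicate 3, and 0 without p16 replicate 1 or 2.

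Of 24 tested enzymes that handle the imported amino acids, 9 fell and 4 rose in p21 cells, where 20.7% of all genes fell and 19.3% rose (median log2 fold change -0.17). The share that rose was near the background. Bcat2, which takes the amino group from leucine, isoleucine and valine, fell 1.39-fold (adjusted p = 0.000559), and subunits of the complex of the next step in their breakdown moved in opposite directions. Of these, Bckdha rose 1.35-fold (adjusted p = 0.000452), while Bckdhb (1.36-fold, adjusted p = 0.0307) and Dbt (1.37-fold, adjusted p = 0.00392) fell. Aldh4a1, of proline breakdown, rose 1.47-fold (adjusted p = 0.000161) and Gss, the glutathione synthetase gene, 1.43-fold (adjusted p = 0.00118). The number that fell was 4 without p21 replicate 1 and 5 without control replicate 2 or p21 replicate 2, and the number that rose was 7 without control replicate 1. In p16 cells Aldh4a1 rose 1.21-fold (adjusted p = 0.0312) and Prodh, of the first step of proline breakdown, fell 1.72-fold (adjusted p = 0.0177). With the replicate block 2 rose and 3 fell. None rose when any control or p16 replicate, or p21 replicate 1, was left out, and none fell without p16 replicate 2 or 3.

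Of 18 tested carriers of amino acids and peptides in other families, 2 rose and 1 fell in p21 cells (19.3% and 20.7% of all genes, median log2 fold change 0.06). Pqlc2, the lysosomal exporter of cationic amino acids, rose 1.74-fold, from 10.7, 8.67 and 7.39 CPM in control to 16, 16.6 and 13.8 CPM in p21 libraries (adjusted p = 0.001). Slc15a3, a lysosomal histidine and peptide carrier of immune cells, rose 3.73-fold at 0.664 ± 0.0355 against 0.178 ± 0.0544 CPM (adjusted p = 0.014). The macrophage marker Lyz2 moved with it, at 17.3 ± 5.53 against 3.88 ± 0.757 CPM, and its part in the change was not tested. Sfxn1, the mitochondrial serine carrier, fell 1.24-fold (adjusted p = 0.00182), and 2 genes of the list fell without p16 replicate 1. In p16 cells 0 of the 18 passed by edgeR (1 higher and 2 lower at an unadjusted p under 0.05, 0 by DESeq2), and 1 rose and 1 fell with the replicate block, and 1 rose without control replicate 1.

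**Figure D4:**
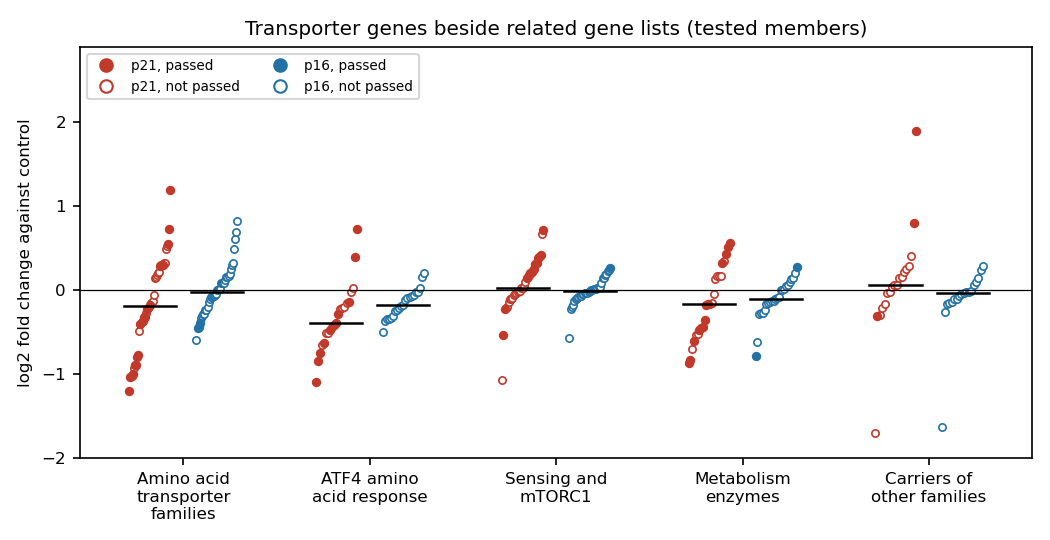
Log2 fold change against control of each tested gene of the transporter families and of 4 related lists, in p21 cells (red) and p16 cells (blue), sorted within a list, with filled points for adjusted p under 0.05 and black bars for medians. The p21 medians are -0.19 for the transporter families and -0.39 for the ATF4 list, and between -0.17 and 0.06 for the other lists.

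The 21 transporter genes not tested had at most 40 counts each over the 9 libraries. Slc7a12, Slc36a3, Slc38a5, Slc38a11, Slc6a11 and Slc6a18 had no read. Among the other 15 were Slc7a9, Slc7a10, Slc7a13, Slc7a15, Slc1a7, Slc38a8, Slc36a2 and several Slc6 genes. At this depth no difference between groups was detectable for these 21.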

How the data were processed

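Read counts per gene symbol for 9 libraries were used as deposited, with no normalisation by the authors. The build was mm10, and the tools were featureCounts 1.4.6, Subread, TopHat2 2.0.14 and Bowtie2 2.2.6, per the submitters' processing notes. Not given in the sources used here are the annotation, the strand setting and the handling of reads with several matches. The kit (TruSeq version 2, per the labels' protocols) does not mark strand, so reads of genes that overlap on opposite strands cannot be told apart. Of the deposited counts between 1 and 20, 67% were even, and where both reads of a pair were counted, 2 counts stem from 1 fragment.

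Groups and replicate numbers came from the sample titles. Counts filtered by edgeR's filterByExpr (14572 genes) were tested in R 4.3.3 by the quasi-likelihood F test (edgeR 4.0.16), after TMM normalisation, with 1 mean per group over all 9 libraries and Benjamini-Hochberg adjustment over all genes at a threshold of 0.05. The script was tested on simulated data. CPM are counts per 1 M counts after TMM, and an SE is the size of the log2 fold change over the root of its F. Exon lengths and positions are those of GENCODE M21 (GRCm38), and promoters those of RefSeq (GRCm38.p6). No library was merged, since those of a group differed by more than sampling noise (chi-square per degree of freedom of 10.37 or more).

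Members were taken by symbol, and genes named are a panel of 10, every member past the threshold, and up to 4 genes a list by lowest adjusted p. The members and the lists were chosen with earlier results of these data known. Shared replicate numbers were taken to pair p16 with control and p21 with p16, on the evidence of the data alone. Correlations of the deviations of same-numbered libraries were 0.25, 0.11 and 0.55, and 0.16, 0.29 and 0.48, each above 0.1. The closest match was not always by number: p16 replicate 2 stood at 0.3 with control replicate 1 and 0.11 with control replicate 2. The highest values (0.55 and 0.48) were those of replicate 3, which stands apart in Xist. The main fit held no pairing term. Alternatives were other size factors, other filters on low counts, DESeq2 1.42.0, fits of 2 groups, a replicate block, a replicate 3 term, replicates 1 and 2 alone, and leaving out each library. Some genes are not reported here.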

Additional observations from a re-analysis of the deposited data

How the results depend on the processing

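Over the 38 tested transporter genes and 3 comparisons, 1870 fold changes under an alternative kept their side of the threshold, 99 lost a call, 65 gained one and none that was called reversed. For p21 minus control the counts stayed within 1.5 times of 14 lower and 6 higher, from 11 to 18 lower and from 4 to 8 higher. There replicate 2 fell short of the limit of 0.1 (correlations of 0.18, 0.025 and 0.49), so p21 and control were not taken as paired. Since p16 was taken to pair with each of them, a pairing of p21 with control remains possible. With the replicate block 17 were lower and 7 higher. For p16 minus control (3 lower, 0 higher), the replicate block gave 5 and 2, a replicate 3 term 5 and 3, DESeq2 2 higher, and the fit of the 2 groups alone 1 lower. Leaving out a library gave 0 to 3 lower and 0 to 1 higher. For p21 minus p16 (8 lower, 3 higher), the replicate block and the replicate 3 term each gave 14 lower. DESeq2 and the fit of the 2 groups alone each gave 12 lower. Library size alone, no filter, and replicates 1 and 2 alone each gave 1 higher, and leaving out a library 2 to 12 lower and 1 to 3 higher. The cause of these changes was not tested, beyond the fewer libraries in some fits. Genes under about 1 CPM, such as Slc1a2, rest on few reads, and differences of their size are at the limit of this depth.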

Other observations

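Some carriers varied more between libraries of a group than between groups. Slc7a8, the LAT2 light chain, stood at 7.35, 7.19 and 2.64 CPM in control, 5.94, 5.64 and 3.78 CPM in p21 and 6.44, 5.97 and 2.14 CPM in p16 libraries (replicates 1, 2 and 3), so that replicate 3 was the lowest of each group. Those libraries also stand apart in Xist. With replicates 1 and 2 alone, Slc7a8 fell in p21 cells (log2 fold change -0.33, adjusted p = 0.045).

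Control replicate 1 was the lowest control library for Slc7a11, Slc7a3, Slc6a9 and Slc1a4 alike. The ATF4 target Trib3, which encodes a pseudokinase, stood at 12.8, 27.1 and 34.9 CPM in control replicates 1, 2 and 3. Chac1, another target, which encodes a glutathione-degrading enzyme, stood at 11.7, 21.7 and 23.4 CPM there. Both were chosen after their values were seen. The summed level of the 21 ATF4 list genes was 1882 CPM in control replicate 1, 2252 CPM in control replicate 2 and 2382 CPM in control replicate 3, against 1705 to 1817 CPM in p21 and 1867 to 2068 CPM in p16 libraries. The part of this spread in the differences between groups was not tested beyond leaving out each library.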
